A study of Homo sapiens with 6 samples.

Results

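The genes of the dynein motor system were followed in NCI-H146 cells, an established small cell lung cancer (SCLC) line, after knockdown of *KIFC1*. They were chosen by name, with earlier results of these libraries known, as 36 of the 28395 genes counted, and cover the subunits of cytoplasmic dynein, dynactin, the LIS1 and NDE regulators, cargo and spindle adaptors, and the DNAAF assembly factors. The groups were 3 libraries transfected with negative control siRNA, whose genotype is given as WT, and 3 transfected with KIFC1 siRNA (siKIFC1), whose genotype is given as KIFC1 knockdown, all harvested on day 2. Both groups were transfected, so the comparison is between siRNAs and holds no untreated cells. The library names carry 1 siRNA number, and a second KIFC1 siRNA was not analysed here.

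Dynein is the main motor that walks toward the minus ends of microtubules. In dividing cells it works with dynactin, LIS1 and NuMA to focus spindle poles and position the spindle, and in interphase it carries vesicles and organelles toward the centrosome. KIFC1 is a kinesin that also moves toward minus ends and helps cluster extra centrosomes, and the comparison asks how the transcripts of dynein, another minus-end motor, stood when KIFC1 was targeted. The DNAAF proteins are chaperone partners that assemble a different set of dyneins, the axonemal dyneins of motile cilia, in the cytoplasm before they enter the cilium.

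Of the 36 genes, *DNAAF5* was lower in siKIFC1 cells and no other gene passed the test in either direction. Its transcript was reduced to 42.8% of control. The 30 subunits, regulators and adaptors tested had log2 fold changes from -0.29 for *BICD2* to 0.19 for *DCTN6*, and the other 4 assembly factors from -0.75 for *DNAAF1*, which had few counts, to 0.20 for *DNAAF2*. With 1 library left out in turn, the 30 genes ran from -0.37 to 0.31 and none passed (smallest adjusted p 0.102 in edgeR).

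The sequences shown here are the places where a 7-base word, GAGATCT, stands in *KIFC1* and in the genes whose levels are described below. This word and a second one, GCAACC, were put forward by earlier results of these same libraries, so their presence in a gene that fell is no independent evidence. Both were searched in the mRNA sequence of the 3′ UTR of each gene's canonical transcript, and they cannot overlap each other. *KIFC1* holds GAGATCT once, in the coding part of exon 7, and the other sites are in 3′ UTRs. Each is printed 5′ to 3′ in the sense of the mRNA, with its position on GRCh38 and the word in capitals.
*KIFC1*, chr6:33405474-33405496, plus strand: gctacgtaGAGATCTacaatgag
*DNAAF5*, chr7:786249-786271, plus strand: tatttcatGAGATCTaattgtgg
*DYNC1I2*, chr2:171748840-171748862, plus strand: tacatcttGAGATCTgttgccac
*NUDCD3*, chr7:44384368-44384390, minus strand: cctctaaaGAGATCTcgaccctg
*NIN*, first site, chr14:50723085-50723107, minus strand: tgaagtttGAGATCTgatgagaa
*NIN*, second site, chr14:50720505-50720527, minus strand: cataggaaGAGATCTtgcaggtc
The run of bases shared with the *KIFC1* site is 8 bases long in *DNAAF5* and *NUDCD3* and 7 in *DYNC1I2*. In the wider list of dynein genes described below, the run was 10 in *DNAAF10*, which was called by neither edgeR nor DESeq2. The run was 8 in *GNAI3*, *DNAAF19*, *DNAH6* and the second *NIN* site, and 7 in *DNAL4*, *DNALI1* and the first *NIN* site. The siRNA sequence is not given in the sources used here, and the part of these sites in any result was not tested.

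Totals ran from 15392374 to 17754458 counts per library. Of the markers of neuroendocrine SCLC, *INSM1* had 10009 to 12809 counts, *SYP*, *NCAM1*, *DLL3* and *GRP* had 363 to 4819, *CHGA* had 104 to 818 and *NEUROD1* had 0 to 5. *NCAM1* passed the test with the block and in DESeq2 but not in edgeR without it (log2 fold change -0.42, SE 0.11, adjusted p = 0.137 by edgeR, 0.000646 once replicate number was added as a block, and 0.0259 by DESeq2). *CHGA* had 147, 104 and 142 counts in the controls against 145, 818 and 482 (log2 fold change 2.00, SE 0.66, adjusted p = 0.436 by edgeR). The part of these differences in the results below was not tested. *POU2F3* and *YAP1*, which mark other SCLC subtypes, had 0 to 3 and 0 to 7 counts. *VIM*, *SFTPC* and *CD3E*, markers of stroma, lung epithelium and T cells, had at most 5 counts in any library, while *PTPRC* and *COL1A2*, of immune cells and stroma, had 21 to 57 and 113 to 197. *CD68*, of immune cells, had 17 to 58 counts and *COL1A1*, of stroma, 28 to 59. *VWF* and *PECAM1*, of endothelium, had 64 to 80 and 4 to 7, and *SCGB1A1*, of lung epithelium, had 0 to 6. The targeted gene, *KIFC1*, had 14, 4 and 14 counts in the controls and 1, 1 and 0 after siKIFC1. The siKIFC1 counts were all below the control counts, and their sum was 6.76% of the control sum after scaling (exact 95% interval 0.785% to 26.5%, counting error only). Its log2 fold change was -3.66 (SE 0.82) with an adjusted p of 0.0739 by edgeR's quasi-likelihood test, and 0.00459 with the block. *KIFC1* was near the detection limit in every library, and 87.9% of the 32-base words of its transcript also occur on alternate sequences of GRCh38.

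*DNAAF5*, also known as HEATR2, helps fold and assemble axonemal dynein arms. It lies at chr7:726699-786475 on the plus strand and its canonical transcript has 13 exons and 3412 bases, of which 822 are 3′ UTR. The control libraries held 1245, 1064 and 1178 counts and the siKIFC1 libraries 533, 456 and 391. Every siKIFC1 library was below every control library, and the gap between the groups was wider than the range within either. Scaled to CPM, the counts of a gene per 1000000 counts of its library after TMM normalization, the mean moved from 68.5 ± 5.53 to 29.3 ± 5.08 (SD, n = 3). The log2 fold change was -1.22 (SE 0.14), with an adjusted p of 0.00382 by edgeR over 14777 genes, and *DNAAF5* ranked number 5 among them by p. In a bulk sample, fewer cells carrying a transcript and less transcript per cell cannot be told apart.

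This 1 gene was 2.86% of the 35 members tested, where 0.372% of all genes tested were called lower. In DESeq2 the same gene was the only member called lower, where 0.981% of all genes were. No member was called higher by either tool, where 0.325% of all genes were in edgeR and 0.846% in DESeq2. At an unadjusted p under 0.05, 0 members were higher in edgeR, where 4.72% of all genes were. At that threshold 2 members were lower (5.71%), against 4.55% of all genes. Groups without overlap were seen for 4 members with lower siKIFC1 values (11.4%, against 7.52% of all genes) and for 2 with higher values (5.71%, against 7.99%). With the replicate number as a block, 6 members had an unadjusted p under 0.05 and were lower (17.1%, against 9.20% of all genes), and 0 were higher (against 8.51%). These were *DNAAF5*, *BICD2*, *PAFAH1B1*, *DYNLL2*, *ACTR1A* and *DCTN5*, each lower in all 3 same-numbered pairs, and after adjustment *DNAAF5* alone passed. The median log2 fold change of the 35 members was -0.03, and that of all genes 0.01.

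**Figure D1:**
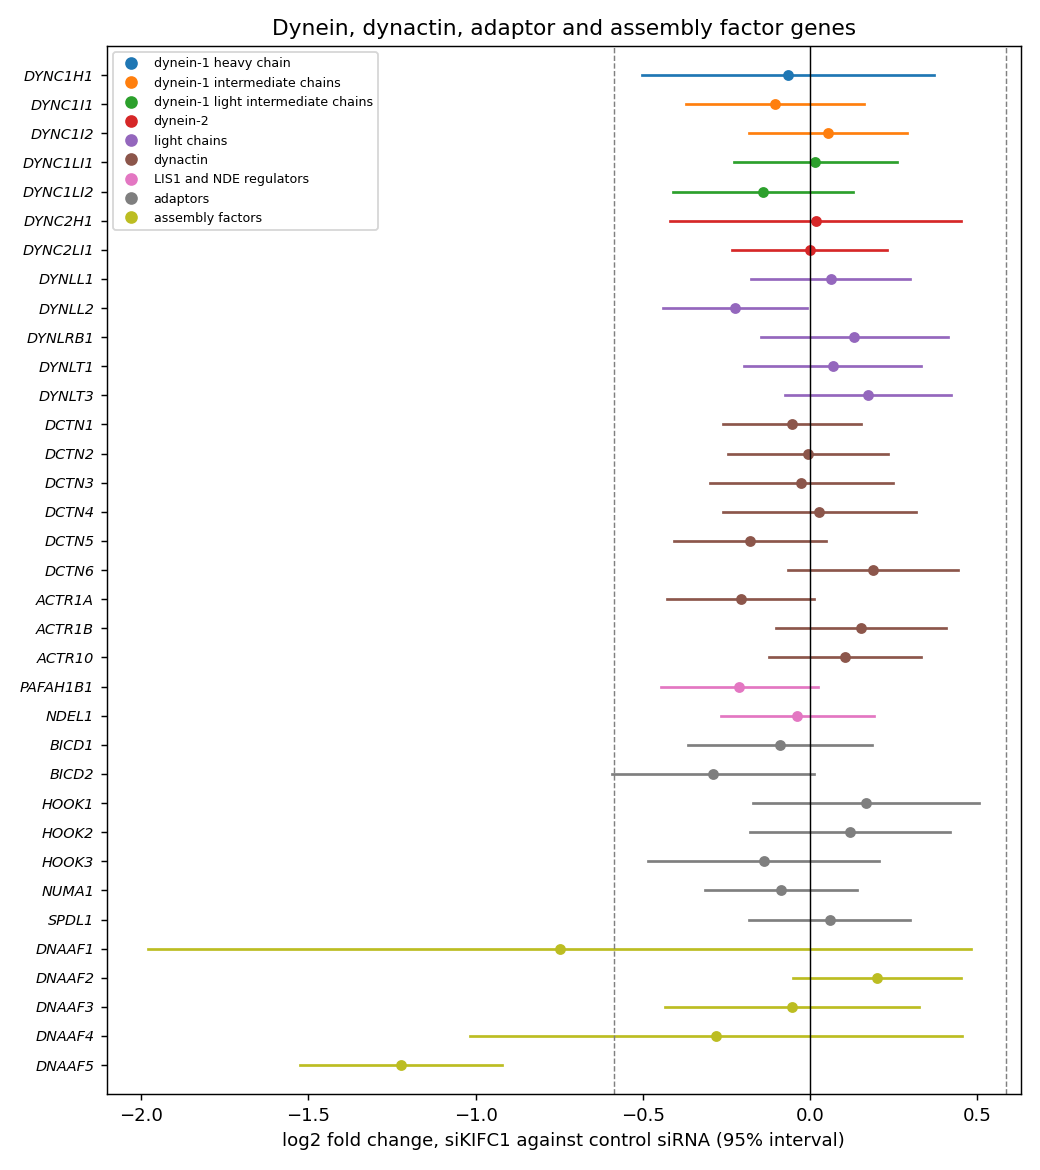
Fold change of each of the 35 members tested, on the log2 scale, siKIFC1 against control siRNA (3 libraries each). Points mark the estimate and lines the 95% interval, from a standard error derived from edgeR's F statistic. Dashed lines mark 1.5-fold either way and colours mark the role. *DNAAF5*, at -1.22, is the only gene whose whole interval lies below the lower dashed line, and *NDE1*, with 0 counts, is not drawn.

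The genes next to *DNAAF5* did not pass the test. *PRKAR1B*, a regulatory subunit of protein kinase A, lies on the opposite strand and overlaps it. It had 479, 513 and 538 counts in the controls and 506, 536 and 432 after siKIFC1, and the groups overlapped (log2 fold change 0.06, SE 0.13, adjusted p = 0.948 by edgeR). *SUN1*, a protein of the inner nuclear membrane that starts 30140 bases to the right, had a log2 fold change of -0.07 (SE 0.10, adjusted p = 0.913 by edgeR). *PDGFA*, to the left, had 2 or 3 counts in each library and was not tested. Of the exon bases of *DNAAF5*, 11.3% overlap exons on the opposite strand, and since the strand setting of the counting is not given in the sources used here, reads from those bases cannot be assigned to 1 gene.

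None of the other 4 assembly factors passed the test. *DNAAF2*, which acts with chaperones on the same dynein arms, had 480, 484 and 521 counts in the controls and 569, 510 and 501 after siKIFC1, a log2 fold change of 0.20 (SE 0.12, adjusted p = 0.681 by edgeR). *DNAAF3* had 129 to 149 counts in the controls and 109 to 136 in siKIFC1, and the groups overlapped. *DNAAF4* and *DNAAF1* were near the detection limit, with 10 to 24 and 3 to 15 counts in the 6 libraries. Leaving out siKIFC1 replicate 2 moved *DNAAF1* to -1.83, and leaving out siKIFC1 replicate 3 moved it to -0.39. The log2 fold changes of *DNAAF4* and *DNAAF1* in all libraries, -0.28 and -0.75, had 95% intervals from -1.02 to 0.45 and from -1.98 to 0.48. Both intervals reached beyond 1.5-fold on the lower side, so a fall of that size was not excluded for either gene. Exons of other genes overlap 59.4% of the exon bases of *DNAAF4* and 40.4% of those of *DNAAF3*.

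Levels of the assembly factors also differed from one another. Given as CPM per kilobase of transcript and averaged over the 6 libraries, the level was 14.3 for *DNAAF5*, 10.5 for *DNAAF2*, 3.83 for *DNAAF3*, 0.517 for *DNAAF4* and 0.229 for *DNAAF1*. *DNAAF5* was thus the highest of the 5 over all libraries, but in siKIFC1 alone its mean level, 8.60 ± 1.49, was below that of *DNAAF2*, 11.3 ± 0.95 (SD, n = 3). *FOXJ1*, the regulator of motile cilia genes, had 145 to 253 counts in each library. Of 21 genes for axonemal dyneins, 11 had at most 20 counts in every library, *DNAI1* and *DNAH5* among them, and 4, *DNAH11*, *DNAH14*, *DNAL1* and *DNALI1*, had at least 100 in every library.

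**Figure D2:**
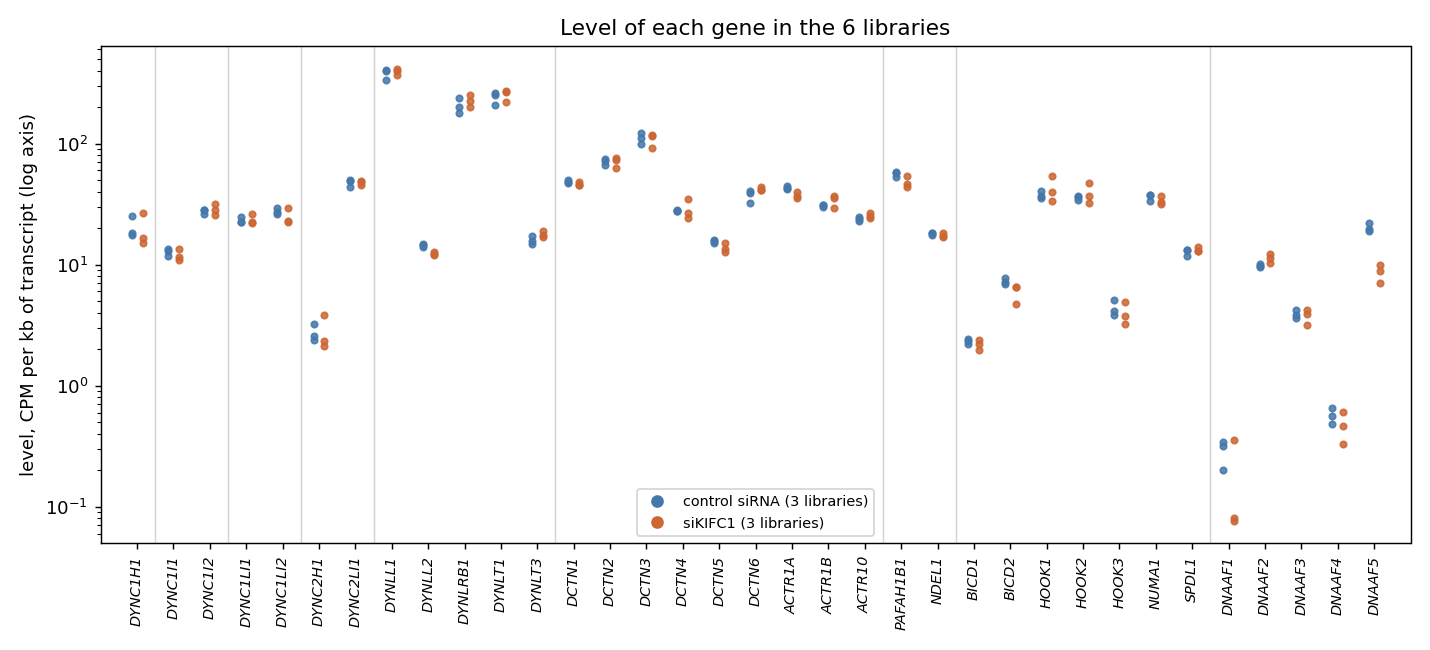
Level of 35 members in each of the 6 libraries, in CPM per kb of transcript on a log axis, with blue points for control siRNA, orange points for siKIFC1 and grey lines between roles. Levels span from *DNAAF1* to *DYNLL1*, and *DNAAF5*, at the right, shows the widest gap between its groups.

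The catalytic core of cytoplasmic dynein showed no change that passed the test. *DYNC1H1*, the heavy chain that holds the motor domain, had 6093, 5621 and 9150 counts in the controls and 5163, 4595 and 8643 after siKIFC1. Replicate 3 was the highest library of both groups, and the groups overlapped. Its log2 fold change was -0.07 (95% interval -0.50 to 0.37), which keeps the change within 1.5-fold either way. Per length, its level was 19.9 CPM per kb.

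The intermediate chains, which join the heavy chain to dynactin and carry the light chains, and the light intermediate chains, which bind adaptors, were expressed from both genes of each pair. *DYNC1I2* was at 28.1 CPM per kb and *DYNC1I1*, the form best known from neurons, at 12.4. *DYNC1LI2* was at 26.3 and *DYNC1LI1* at 23.4. The log2 fold changes of these 4 genes ran from -0.14 to 0.05 (smallest adjusted p 0.823 in edgeR), and all 4 intervals stayed within 1.5-fold. *DYNC1I2* holds the word GAGATCT in its 3′ UTR and had a log2 fold change of 0.05.

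Dynein-2 drives retrograde transport inside cilia. Its heavy chain gene *DYNC2H1* was at 2.75 CPM per kb, and its light intermediate chain gene *DYNC2LI1* at 47.5. The *DYNC2H1* counts were 547, 565 and 811 with control siRNA and 505, 443 and 853 with siKIFC1, again with replicate 3 highest in each group. Neither gene passed the test, with log2 fold changes of 0.02 and -0.0015.

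The light chains are small dimers that bind the intermediate chains and many other partners. Per transcript length, 3 of them held the highest levels of the 36 genes. *DYNLL1* was at 386.9 CPM per kb, *DYNLT1* at 247.4 and *DYNLRB1* at 215.1, whereas *DYNLT3* was at 16.9 and *DYNLL2* at 13.4. The *DYNLL2* value rests on a canonical transcript of 6807 bases, of which 6263 are 3′ UTR. Without division by length its control mean was above that of *DYNLT3*, 34.1 CPM. For *DYNLRB1*, 88.7% of the exon bases overlap exons of other genes, so its level is uncertain. *DYNLL2* was the 1 light chain with an unadjusted p under 0.05. It had 1572, 1600 and 1828 counts in the controls and 1303, 1312 and 1339 after siKIFC1, and its groups did not overlap. The mean was 98.0 ± 3.19 CPM in the controls and 83.9 ± 2.29 in siKIFC1 (SD, n = 3). The log2 fold change of -0.23 (SE 0.10) did not pass after adjustment (adjusted p = 0.508 by edgeR). The other 4 light chains had log2 fold changes from 0.06 to 0.17.

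Dynactin links dynein to its cargo and raises its processivity. Its 9 genes had levels from 14.7 CPM per kb for *DCTN5*, of the pointed-end complex, to 109.5 for *DCTN3*, of the shoulder. The *DCTN5* value rests on a canonical transcript of 10954 bases, of which 10328 are 3′ UTR. Without division by length its control mean was 170.6 CPM, against 91.5 for *DCTN3*. *DCTN1*, which encodes the large subunit that binds microtubules and the intermediate chains, was at 47.3, and *DCTN2*, dynamitin, at 71.0. The log2 fold changes were higher for 4 and lower for 5 of the 9 genes, from -0.21 for *ACTR1A* to 0.19 for *DCTN6*, and none passed the test (smallest adjusted p 0.577 in edgeR). All 9 intervals stayed within 1.5-fold. *DCTN6*, at the pointed end, had 630 to 706 counts in the controls and 667 to 755 in siKIFC1, and after scaling its siKIFC1 values were all above the controls. Without control siRNA replicate 3 its log2 fold change was 0.10. Overlapping exons cover 30.3% of the exon bases of *DCTN5* and 27.7% of those of *DCTN6*.

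LIS1, encoded by *PAFAH1B1*, holds dynein in an open form, and NDE1 and NDEL1 bring LIS1 to it. *PAFAH1B1* was at 52.1 CPM per kb and *NDEL1* at 17.7. The *PAFAH1B1* counts were 4925, 5090 and 5929 with control siRNA and 4089, 3737 and 4938 with siKIFC1. The scaled groups overlapped through siKIFC1 replicate 3, and the log2 fold change was -0.21 (SE 0.11, adjusted p = 0.607 by edgeR). *NDEL1* had 685, 689 and 781 counts against 625, 650 and 666, a log2 fold change of -0.04. *NDE1* had 0 counts in all 6 libraries, which allows up to 0.163 to 0.198 CPM per library at 3 counts. Of the 32-base words of the *NDE1* transcript, 92.7% also occur on the 261 alternate sequences of GRCh38, and the part of this in the value was not tested, so the absence of counts does not show that the gene is silent.

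Among the adaptors, *HOOK1* was highest at 40.1 CPM per kb, followed by *HOOK2* at 37.2 and *NUMA1* at 34.9. *NUMA1* encodes NuMA, which anchors dynein at spindle poles and the cell cortex, and 49.3% of its exon bases overlap exons on the opposite strand. *SPDL1*, which encodes Spindly, the kinetochore adaptor, was at 13.0. *BICD2*, *HOOK3* and *BICD1*, adaptors for vesicle transport, were at 6.59, 4.14 and 2.25. The *HOOK3* value rests on a transcript of 14348 bases, of which 12037 are 3′ UTR. Without division by length its control mean was 62.3 CPM, against 32.3 for *SPDL1*. None of the 7 passed the test, and their log2 fold changes ran from -0.29 to 0.17. *BICD2* had 770, 707 and 914 counts in the controls and 660, 461 and 690 after siKIFC1. Its scaled groups did not overlap, siKIFC1 replicate 2 was the lowest library, and the log2 fold change was -0.29 (SE 0.14, adjusted p = 0.566 by edgeR), or -0.15 without that library. *HOOK1*, the upper limit of this range, was at -0.05 without siKIFC1 replicate 3.

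The width of the intervals sets how firmly the absence of a call can be read. Of the 35 members tested, 31 (88.6%) had a 95% interval that stayed within 1.5-fold either way, where 65.6% of all genes did. The exceptions were *DNAAF5* itself, *DNAAF1*, *DNAAF4* and *BICD2*, whose interval reached 0.664-fold.

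**Figure D3:**
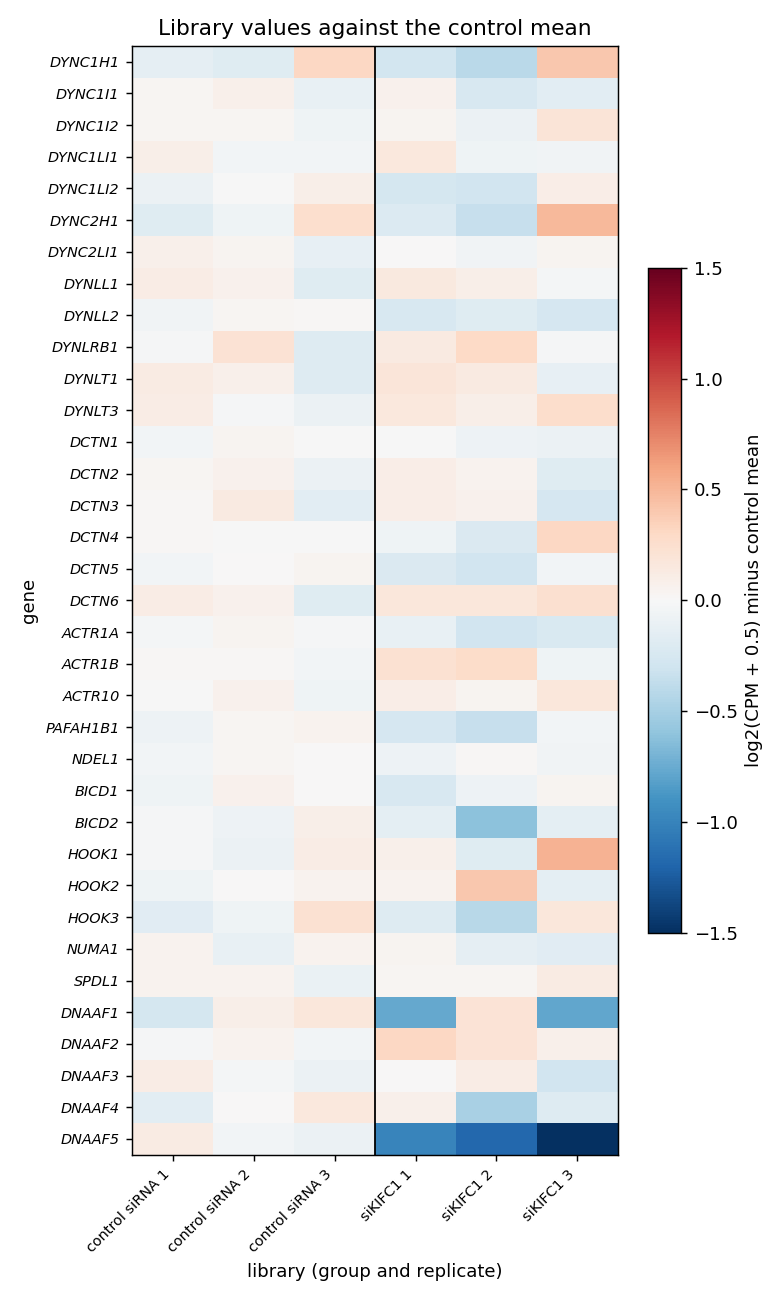
Each library's value minus the mean of the 3 control libraries, in log2(CPM + 0.5), for the 35 members (rows) in the 6 libraries (columns), with blue for lower and red for higher. *DNAAF5* is blue in all 3 siKIFC1 libraries, and *DYNC1H1*, *DYNC2H1* and *HOOK3* are red in replicate 3 of both groups.

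Several subunits are encoded by pairs of related genes, so the share of each pair held by its first gene was computed from counts per transcript length. *ACTR1A* and *ACTR1B* encode the actin-related protein that forms the dynactin filament. *ACTR1A* held 57.6%, 58.9% and 58.9% of the pair with control siRNA and 52.7%, 48.7% and 55.9% with siKIFC1. The groups did not overlap, and the share moved from 58.5 ± 0.725% to 52.4 ± 3.59% (SD, n = 3). An exact permutation test, two-sided, gave p = 0.1, the smallest value that 3 against 3 libraries can give (adjusted p = 0.3 over 6 pairs).

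For the LC8 light chains, *DYNLL1* held 96.7%, 96.4% and 95.8% of its pair with *DYNLL2* in the controls and 97.1%, 96.9% and 96.8% in siKIFC1, also without overlap (exact permutation p = 0.1, adjusted p = 0.3). The difference was 0.665 percentage points per length and 3.92 percentage points in plain counts, since the *DYNLL2* transcript is the longer (6807 against 663 bases). The share itself depends on that length. Without division by length the control means were 251.0 CPM for *DYNLL1* and 98.0 for *DYNLL2*. *DYNC1I1* held 31.7 ± 0.720% of its pair in the controls and 29.4 ± 2.79% in siKIFC1. *DYNC1LI1* held 45.8 ± 2.76% and 48.6 ± 5.07%, *DYNLT1* 93.8 ± 0.405% and 93.3 ± 1.11%, and *BICD1* 24.3 ± 1.56% and 27.2 ± 4.42%. The groups overlapped in these 4 pairs, with exact permutation p-values from 0.3 to 0.7. For *NDE1* and *NDEL1* the share was not tested, because *NDE1* had no counts.

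**Figure D4:**
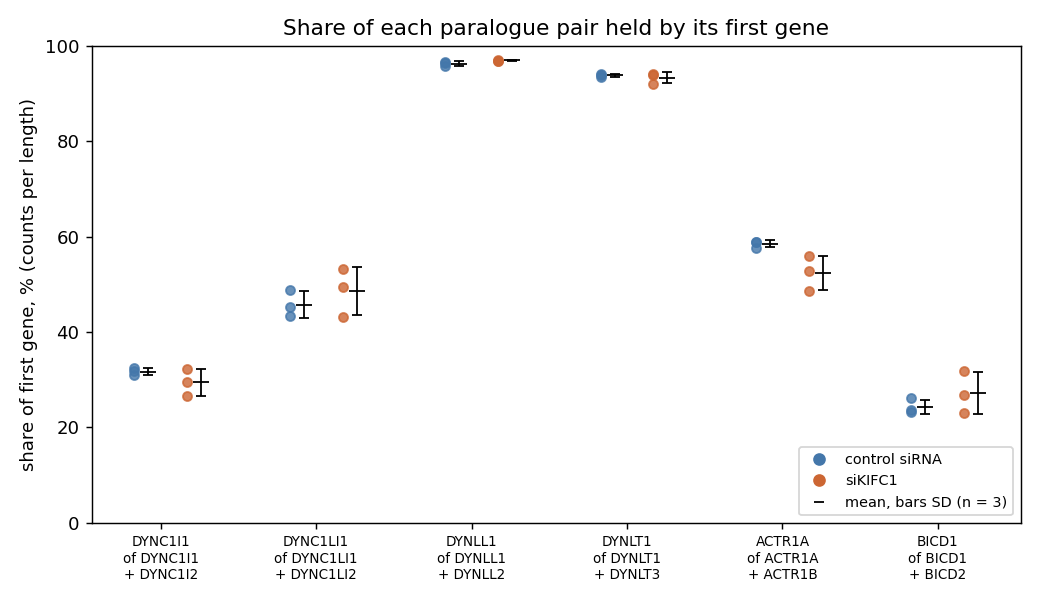
Share of each of 6 paralogue pairs held by its first gene, in percent of the pair's counts per transcript length, with blue points for the 3 control siRNA libraries, orange points for the 3 siKIFC1 libraries, and black marks for the mean and SD. The *ACTR1A* share is lower in all 3 siKIFC1 libraries, and the *DYNLL1* share lies near the top of the axis in both groups.

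Replicate 3 differed from the other replicates of both groups by transcript length. The difference between replicate 3 and the mean of replicates 1 and 2, in log2(CPM + 0.5), had a Pearson correlation with log2 transcript length of 0.80 in the control libraries and 0.67 in the siKIFC1 libraries over the 35 members. Over 14431 genes it was 0.35 and 0.44. The members share the same libraries, so these are descriptions with no test. The 6 members with transcripts over 7 kb had a median difference of 0.21 in the controls and 0.35 in siKIFC1, close to the 0.21 and 0.36 of all genes of that length. *DYNC1H1*, at 19940 bases the longest, was 1.39 times its level in the other control libraries and 1.67 times that in the other siKIFC1 libraries. *DYNC2H1* was 1.29 and 1.69 times, and *HOOK3* 1.27 and 1.40 times. The short light chain genes went the other way, with *DYNLRB1* at 0.817 and 0.852 times and *DYNLT1* at 0.816 and 0.824 times.

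The fall of *DNAAF5* did not rest on replicate 3. With siKIFC1 replicate 3 left out its log2 fold change was -1.10, with control siRNA replicate 3 left out it was -1.27, and it passed the test in both cases (adjusted p = 0.000127 and 0.0256 in edgeR).

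**Figure D5:**
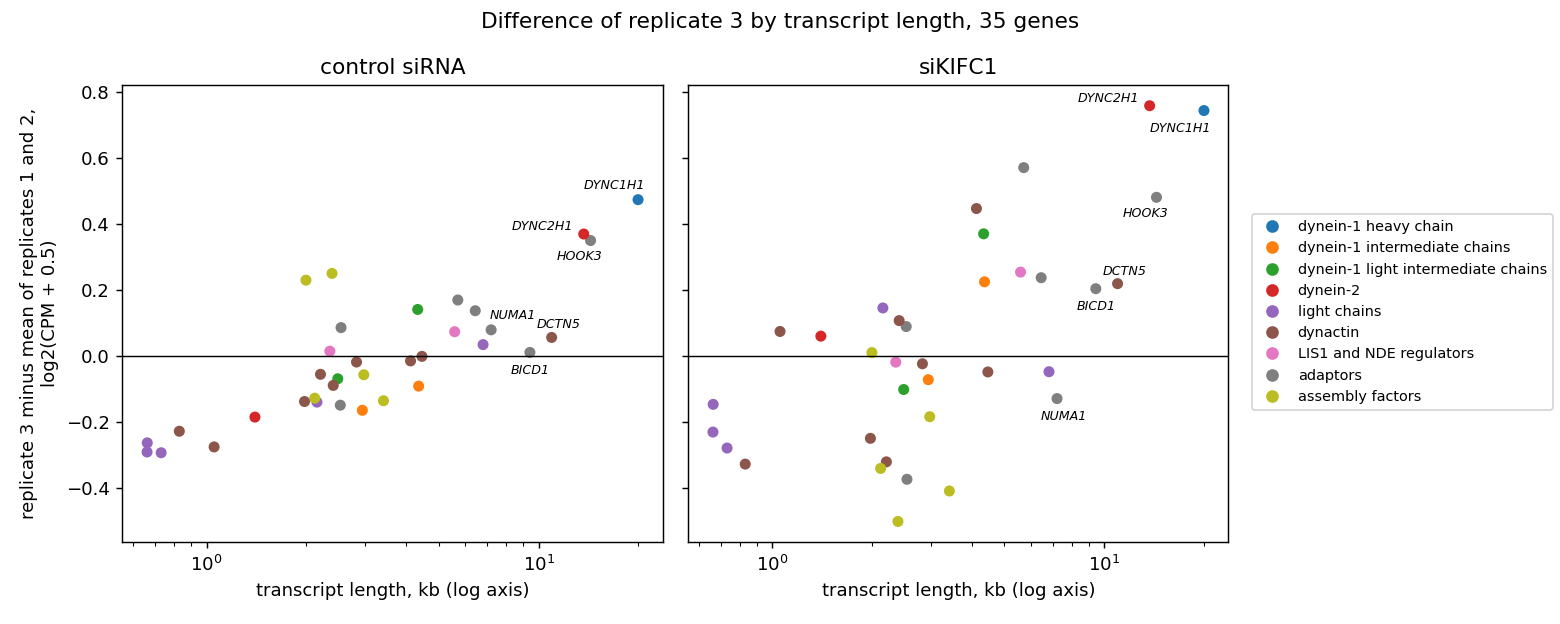
Replicate 3 minus the mean of replicates 1 and 2, in log2(CPM + 0.5), against transcript length in kb on a log axis, for the 35 members in the control siRNA libraries (left) and the siKIFC1 libraries (right), coloured by role, with names for transcripts over 7 kb. The longest transcripts, *DYNC1H1*, *DYNC2H1* and *HOOK3*, lie highest among the named genes in both groups, and 3 short light chains lie below 0 in both.

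The word GAGATCT was present in the 3′ UTR of 2 of the 35 members with a 3′ UTR of at least 50 bases, *DNAAF5* and *DYNC1I2* (5.71%), where 8.98% of 13059 genes held it. Of these members, 1 fell and 1 had a log2 fold change of 0.05. GCAACC was present in 4 of 35 members, *DYNC1H1*, *BICD1*, *BICD2* and *HOOK3* (11.4%), where 23.2% of genes held it. All 4 had log2 fold changes below 0, from -0.29 to -0.07, where 20 of the 35 members were below 0, and none passed the test. In the wider list of dynein genes described next the direction was the other way. There 11 of 15 genes that hold GCAACC were above 0, where 25 of all 60 tested were.

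A further 76 genes of dynein biology were counted beside the members, and 60 of them could be tested. They are the remaining subunits, capping proteins of dynactin, LIS1 partners, activating adaptors, kinetochore and cortical partners, axonemal dyneins and other assembly factors. By edgeR 0 of the 60 were called in either direction, where 0.697% of all genes were. At an unadjusted p under 0.05, 2 were higher and 3 lower, where 4.72% and 4.55% of all genes were. DESeq2 called 1 lower, *NUDCD3*, and 0 higher, where 0.981% and 0.846% of all genes were called. With the replicate number as a block, 3 were called lower and 0 higher, where 3.07% and 2.75% of all genes were. Their median log2 fold change was -0.02.

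The 3 genes called with the block were *NUDCD3*, *NIN* and *DNAH1*. *NUDCD3* is a relative of NudC, a chaperone cofactor that stabilises LIS1 and dynein intermediate chains. It had 1414, 1296 and 1544 counts in the controls and 993, 934 and 918 after siKIFC1, without overlap (log2 fold change -0.47, SE 0.10, adjusted p = 0.0687 by edgeR and 0.00121 with the block). *NIN* encodes ninein, a centrosomal protein that also activates dynein. Its counts were 1093, 1026 and 1518 against 751, 691 and 1020, with replicate 3 highest in both groups, and its scaled groups did not overlap (log2 fold change -0.45, SE 0.15, adjusted p = 0.287 by edgeR and 0.00216 with the block).

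*DNAH1*, an inner arm heavy chain of motile cilia, had 182, 152 and 253 counts against 94, 98 and 163. The scaled groups overlapped through siKIFC1 replicate 3 (log2 fold change -0.61, SE 0.22, adjusted p = 0.355 by edgeR and 0.00929 with the block). The sites of GAGATCT in *NUDCD3* and *NIN* are among those printed above, and *DNAH1* has none in its 3′ UTR. GAGATCT was present in 7 of the 56 other genes examined by the same rule (12.5%, where 8.98% of all genes held it). Of these 7, 6 had log2 fold changes below 0, where 35 of all 60 tested were. Over all genes that hold the word the median log2 fold change was -0.11, and over those without it 0.02. The word was put forward by these same libraries, so these values are no independent evidence. GCAACC was present in 15 of the 56 (26.8%, against 23.2%), with a median of 0.11.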

How the data were processed

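RNA was sequenced from NCI-H146 cells, 3 libraries per group. The authors aligned reads to GRCh38 with HISAT2 2.2.1, counted them per gene with featureCounts 2.0.8 and deposited raw counts for 28395 NCBI gene IDs, without normalization. The gene annotation, the strand setting and the siRNA sequence are not given in the sources used here. Of the IDs, 27745 matched a symbol, and the others held 0.0618% of counts.

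The quasi-likelihood test of edgeR 4.0.16 was run in R 4.3.3 (genes kept by filterByExpr plus *KIFC1*, TMM, robust fit, group as the only term, Benjamini-Hochberg over 14777 genes, threshold 0.05). SE is the standard error of the log2 fold change, and 95% intervals use it. A count of 3 was the floor, and floors cover counting error only. Transcript lengths, 3′ UTRs and sites came from GENCODE 44 canonical transcripts. The script was tested on simulated data. Alternatives were DESeq2 1.42.0, limma-voom (limma 3.58.1), the replicate number as a block, each library left out, DESeq2's size factors or plain library totals in place of TMM, and a filter of 10 counts per library or none. Exact tests and figures used Python 3.11.15, scipy 1.17.1, numpy 2.4.6, pandas 2.3.3 and matplotlib 3.10.9.

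Members and lists were chosen with earlier results of these data known. Values in every library are given for members that passed, or had an unadjusted p under 0.05, and other genes named with their counts were chosen after their values were seen. The libraries are labelled biological replicates. After removal of group means, same-numbered libraries correlated at 0.484, 0.414 and 0.491 over 11758 genes, and differently numbered ones at -0.457 to 0.0234, so the numbers were taken to pair the libraries. That pairing comes from the data and not from the labels. The deviations of each gene within a group sum to 0, so positive values for same-numbered libraries force negative ones among the others. The negative values are thus no separate support for the pairing.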

Additional observations from a re-analysis of the deposited data

How the results depend on the processing

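The count of members called lower was 1, *DNAAF5*, and that of members called higher 0, under all 13 alternatives. The log2 fold change of *DNAAF5* ran from -1.34 to -1.10, with adjusted p up to 0.0256. *DYNLL2* did not pass in any of them (adjusted p from 0.144, with the replicate block, to 0.999), nor did any other member. The median over members ran from -0.04 to -0.02 with 1 library left out.

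Other pathway genes called lower numbered 0 of 60 in the main test, where 0.372% of all genes were. They numbered 1 with DESeq2 (against 0.981% of all genes) and 3 with the replicate block (against 3.07%). With no filter on low counts they numbered 1 of 73. With 1 library left out they ran from 0 to 3, with 3 reached without siKIFC1 replicate 3. The share over all genes is not given for the remaining settings. Their counts cannot be set against it and say nothing about these genes in particular. *KIFC1* passed the test with no filter (log2 fold change -3.66, adjusted p = 0.00412), with limma-voom (-3.14, adjusted p = 0.0445) and with the replicate block (-3.65, adjusted p = 0.00459), and with 1 library left out it ran from -4.03 to -3.12. The filter on 10 counts in every library removes *KIFC1*, and DESeq2 gives it no adjusted p. The difference in the *DYNLT1* share, -0.484 percentage points, ran from -0.828 to 0.154 with 1 library left out, the last without siKIFC1 replicate 3. The share difference of *DYNC1LI1* ran from 0.553 without siKIFC1 replicate 1 to 5.57 without siKIFC1 replicate 3. That of *BICD1* was 2.91, and 0.599 without siKIFC1 replicate 2. That of *DYNC1I1* ran from -3.64 without siKIFC1 replicate 1 to -0.857 without siKIFC1 replicate 3. The size of these differences thus moved with single libraries, while their sign stayed the same. The cause of these moves was not tested. The replicate block changed the call of no member. For the paralogue shares no call could change, because exact tests on so few libraries cannot pass the threshold, with the block or without. The smallest exact p was 0.1 without the block and 0.25 with it, both for the *ACTR1A* and *DYNLL1* shares. The block thus says nothing about how firm the shares are.

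With 3 libraries a group, exact tests of shares cannot go below p = 0.1, and *DNAAF1* and *DNAAF4*, with 3 to 24 counts, allow no firm statement.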
